A study of Homo sapiens with 24 samples.

Results

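The genes described here are the nuclear-encoded subunits and assembly factors of mitochondrial complex I. They were chosen by name: protein-coding genes whose symbol begins with NDUFA, NDUFB, NDUFC, NDUFS, NDUFV or NDUFAF and a digit, together with NDUFAB1. This gave 48 of the 60675 genes in the files, and 47 of them were among the 20668 genes that passed the filter on low counts. The exception was NDUFC2-KCTD14, a readthrough transcript of NDUFC2 and its neighbour, which was listed at 0 in every library and whose exon bases were 100% shared with other genes. Roles were assigned from general knowledge of the complex: 7 core subunits (3 in the NADH-oxidising N module and 4 in the quinone-reducing Q module), 30 accessory subunits, 8 assembly factors, NDUFA4, NDUFA4L2 and the readthrough gene. NDUFA4 and its paralog NDUFA4L2 carry complex I names, but NDUFA4 is a subunit of complex IV, and RefSeq now lists the pair as COXFA4 and COXFA4L2.

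The study used HCT116, a human colorectal cancer cell line, in 3 forms that the labels call WT, Mutant and Null for p53. The treatments were a solvent control, APR-246 at 20 uM, irradiation with 6 Gy, and the combination, in which APR-246 preceded irradiation; irradiated cells were harvested 72 hours later. APR-246 (eprenetapopt) is a compound developed to restore the function of mutant p53. Each of the 12 groups holds 2 poly(A)-selected RNA-seq libraries, 24 in all. Every p53 status is a single line grown in McCoy 5A medium, so status and line cannot be told apart. The labels do not say whether the 2 libraries of a group came from separate cultures, so p-values here measure only the spread between these samples. The collection time of cells that were not irradiated was not stated either.

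Complex I oxidises NADH and passes the electrons through a flavin and a chain of iron-sulfur clusters to ubiquinone, and it pumps protons across the inner mitochondrial membrane. Its core subunits are divided between the nuclear and the mitochondrial genomes, and the nuclear accessory subunits surround and stabilise them. Assembly factors bring modules together and are absent from the finished enzyme.

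Promoter stretches of 3 genes show the sequence motifs that many genes of the respiratory chain carry and a promoter that lacks them. The sequences are from RefSeq (GRCh38.p14), read 5′ to 3′ on the strand of the gene, and 42 of the 48 genes had an entry. NDUFB4 (chr3:120596166-120596335, + strand) is shown because it was the only one with the exact palindrome of NRF1, a regulator of respiratory genes. NDUFS3 (chr11:47578964-47579073, + strand) is shown for the ETS-family letters CCGGAAG, bound by GABPA, on both strands. NDUFA4L2 (chr12:57240763-57240872, - strand) is shown because it is the gene whose level differed most, and this stretch holds none of the searched motifs. Capitals mark the exact NRF1 palindrome and then its form with a free sixth base in the first sequence, and CCGGAAG or its reverse complement in the second.
NDUFB4: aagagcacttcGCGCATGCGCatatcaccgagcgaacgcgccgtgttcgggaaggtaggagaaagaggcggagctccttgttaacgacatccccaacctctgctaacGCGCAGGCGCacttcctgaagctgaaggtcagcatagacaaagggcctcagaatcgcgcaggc
NDUFS3: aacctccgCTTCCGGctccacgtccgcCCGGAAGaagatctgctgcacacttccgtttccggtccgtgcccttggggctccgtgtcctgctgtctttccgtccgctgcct
NDUFA4L2: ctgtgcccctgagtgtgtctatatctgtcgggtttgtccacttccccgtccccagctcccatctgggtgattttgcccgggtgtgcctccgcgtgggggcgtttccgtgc

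Motifs were searched on both strands in the 250 bases before each start site. The exact NRF1 palindrome occurred in 1 of 42 genes (2.38%, against 1.28% of 27305 genes with a promoter entry). The form with a free sixth base, which includes the former, occurred in 5 (NDUFA3, NDUFA9, NDUFA11, NDUFA12 and NDUFB4; 11.9% against 6.20%). CCGGAAG occurred in 7 (NDUFA1, NDUFA13, NDUFAF4, NDUFAF8, NDUFB7, NDUFS1 and NDUFS3; 16.7% against 10.2%). AAGATGGC, the YY1 motif, occurred in 0 against 1.64% of all genes. ACGTG, one form of the core letters of the hypoxia response element, was searched after the values of NDUFA4L2 had been seen. It occurred in 11 (26.2% against 21.7%) and not in NDUFA4L2. The form that begins with G, GCGTG, was not searched. The NDUFA4L2 stretch above holds it, but its share over all genes was not taken, so nothing can be read from that. These matches describe letters and are no evidence of binding.

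Libraries held 53184139 to 58058729 reads. The deposited values are CPM, read counts relative to the library total, and levels below are scaled CPM, that is CPM divided by a library's TMM factor, which ranged from 0.741 to 1.28. The libraries differed in how expression followed GC content. For each one, the slope of a gene's log2 level, relative to its mean over the 24 libraries, was taken against the GC percent of its transcript, and it ran from -0.649 to 0.595 per 10 percentage points. This GC slope was -0.530 and 0.261 in the WT solvent libraries, -0.649 and 0.234 in the Mutant and -0.253 and 0.343 in the Null ones. Replicate 2 had the higher slope in every group except Null with APR-246 (0.142 and -0.0803). Group means of the slope also differed between treatments. In WT they were -0.134 in solvent, -0.158 with APR-246, 0.138 after irradiation and -0.336 with both. In the same order they were -0.207, 0.013, 0.214 and 0.016 in Mutant and 0.045, 0.031, 0.154 and 0.225 in Null. The fits below that include the slope therefore cannot fully tell it apart from treatment. The 7 epithelial markers summed to between 4773 and 17230 CPM, although VIL1 was at 0.035 to 1.52. The 7 fibroblast markers summed to between 11.8 and 69.1, nearly all of it COL1A1 (11.5 to 67.9), with DCN at most 0.037 and LUM at most 0.074, and the 7 blood markers to between 0.278 and 3.01.

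Levels per kilobase differed widely among the genes. Averaged over 24 libraries and divided by the median length of the principal transcripts, NDUFS8 was highest at 224 scaled CPM per kilobase, followed by NDUFB9 at 217 and NDUFS5 at 213. NDUFS8 carries iron-sulfur clusters of the Q module, and NDUFB9 and NDUFS5 are accessory subunits of the membrane arm. These neighbours did not differ beyond the spread of their libraries, and the order depended on the length used: NDUFS5 led with all exons joined (212) and NDUFV1 with the median coding transcript (399). NDUFA7 (0.504) and NDUFV2 (0.679) were the lowest above 0 under each of 4 lengths tried. Both share exon bases with other annotated genes, NDUFA7 33.5% and NDUFV2 28.4%, and the annotated pseudogene of NDUFV2 stood at 3.63 CPM, above NDUFV2 itself. In all, 21 genes shared no exon base with another gene, 19 shared up to 25%, 7 between 25 and 75% and 1 more than that. For NDUFV2, NDUFA7 and NDUFB8 (48.5% shared) the overlap was wholly or mostly on the same strand (28.4, 32.3 and 33.8%). Their levels are therefore uncertain however strand was counted. For NDUFS7 (49.1%), NDUFB11 (44.9%, with RBM10), NDUFA1 (44.5%, with RNF113A) and NDUFB2 (35.9%, with BRAF) it was wholly or mostly on the opposite strand. The counting strand was not given, so the levels of these genes are uncertain too.

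**Figure D1:**
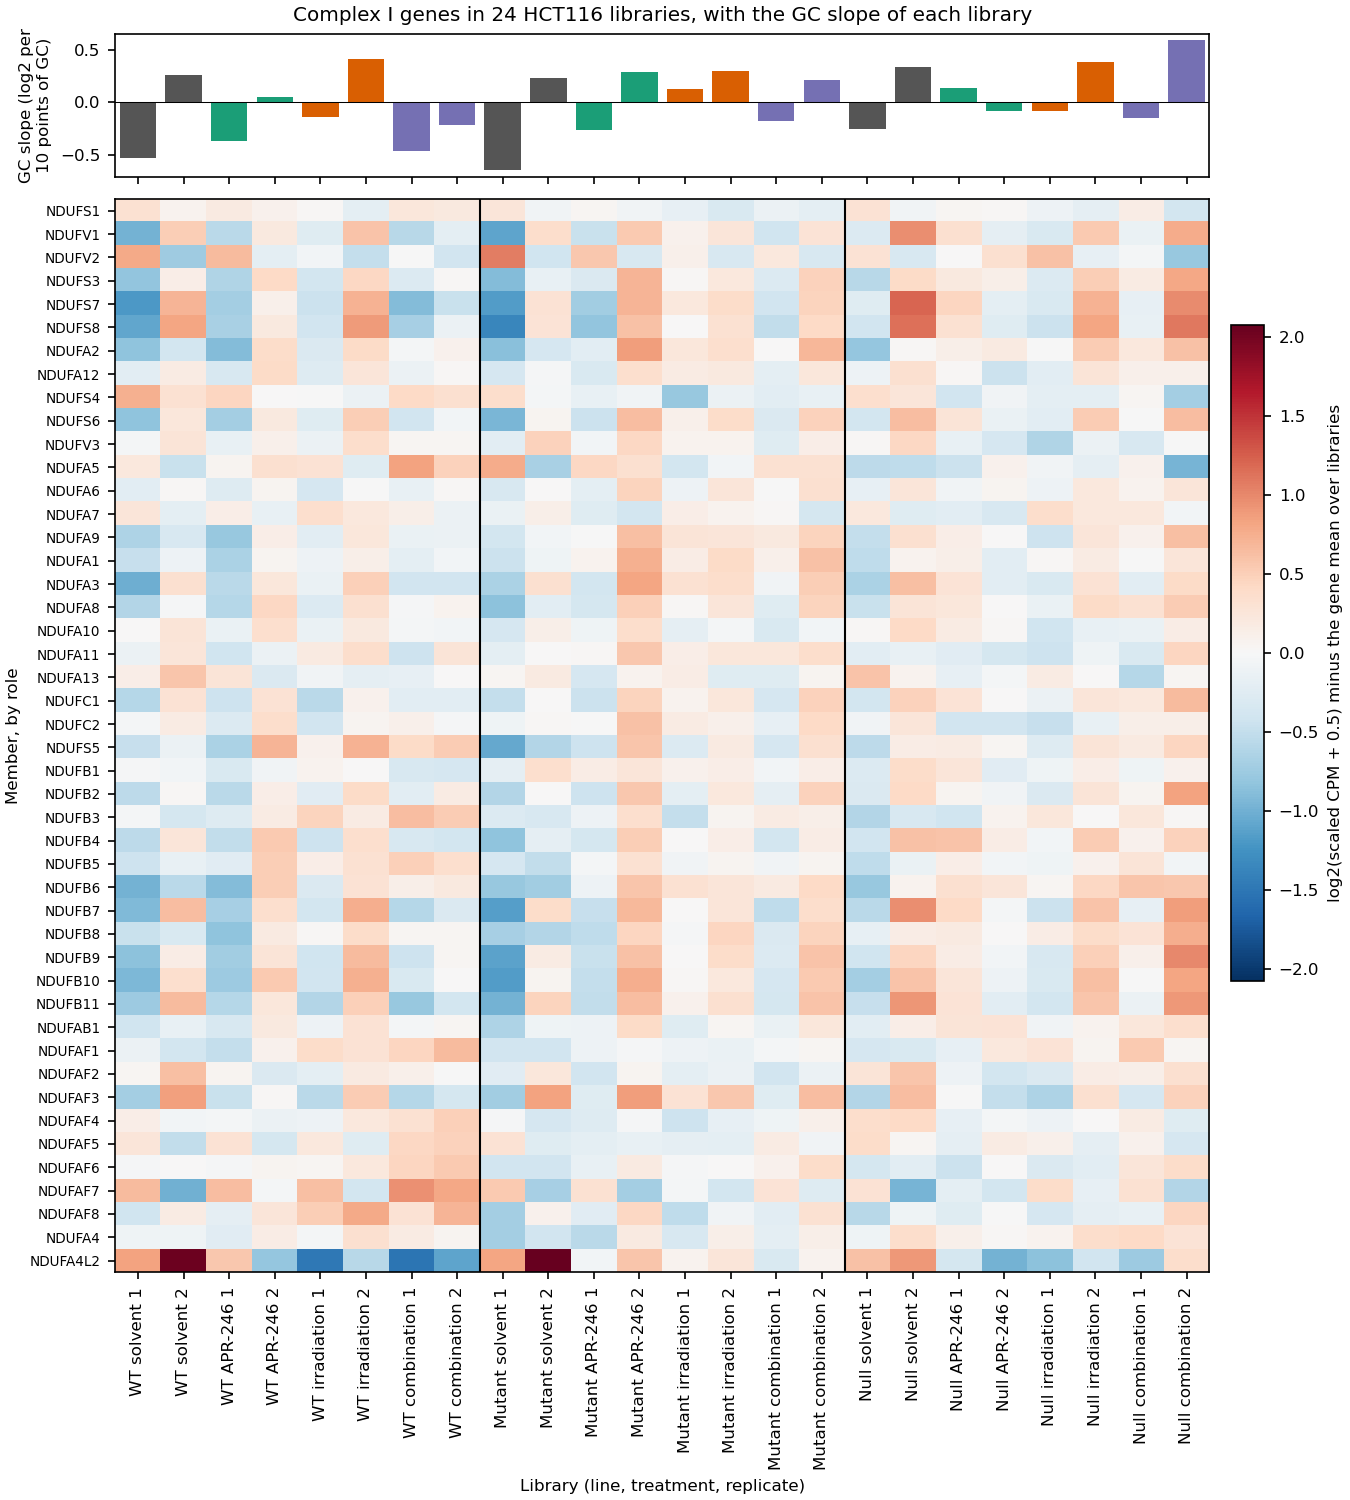
Level of 46 genes (rows, grouped by role) in 24 libraries (columns, by line and treatment); colour is log2(scaled CPM + 0.5) minus the gene's mean over the libraries, and the bars on top give each library's GC slope. In solvent, replicate 2 is above replicate 1 for 36 (WT), 37 (Mutant) and 40 (Null) of all 47 genes tested, and NDUFA4L2 is above its mean in all 6 solvent libraries.

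The core subunits of the N module receive electrons from NADH. NDUFV1 holds the flavin and the NADH site. NDUFV1 in WT cells measured 132 and 375 scaled CPM in solvent, 179 and 301 with APR-246, 221 and 394 after irradiation and 176 and 228 with both. NDUFV1 in the Mutant line was at 123 and 339.7 scaled CPM in solvent, 189 and 383 with APR-246, 279 and 312 after irradiation and 197 and 319.8 with both. NDUFV1 in Null cells stood at 215 and 515 scaled CPM in solvent, 330.2 and 232 with APR-246, 211 and 384 after irradiation and 239.8 and 448 with both. The widest ratio within a group was that of the WT solvent pair, and every treated pair overlapped its solvent pair. NDUFS1, the largest subunit of the module, binds several iron-sulfur clusters. NDUFS1 in WT cells measured 70.9 and 59.6 scaled CPM in solvent, 65.2 and 60.95 with APR-246, 57.7 and 49.6 after irradiation and 66.9 and 65.9 with both. NDUFS1 in the Mutant line was at 67.9 and 53.99 scaled CPM in solvent, 58.4 and 54.1 with APR-246, 50.5 and 45.8 after irradiation and 52.6 and 49.3 with both. NDUFS1 in Null cells stood at 70.03 and 54.4 scaled CPM in solvent, 58.5 and 58.01 with APR-246, 52.7 and 49.8 after irradiation and 63.5 and 43.6 with both. NDUFS1 spread little, and in the irradiated cells of all lines both libraries lay below both solvent libraries. Taken line by line, 15.2 (WT), 22.8 (Mutant) and 15.9% (Null) of all genes did so after irradiation. NDUFV2 carries an iron-sulfur cluster near the flavin, and its reads are uncertain for the reasons above. NDUFV2 in WT cells measured 1.34 and 0.141 scaled CPM in solvent, 1.19 and 0.429 with APR-246, 0.523 and 0.257 after irradiation and 0.569 and 0.315 with both. NDUFV2 in the Mutant line was at 1.73 and 0.299 scaled CPM in solvent, 1.07 and 0.352 with APR-246, 0.654 and 0.349 after irradiation and 0.751 and 0.352 with both. NDUFV2 in Null cells stood at 0.822 and 0.351 scaled CPM in solvent, 0.579 and 0.848 with APR-246, 1.12 and 0.445 after irradiation and 0.534 and 0.118 with both. Here replicate 1 was the higher in every group but Null with APR-246.

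The core subunits of the Q module carry electrons to ubiquinone. NDUFS3 supports the base of the module. NDUFS3 in WT cells measured 28.00 and 54.9 scaled CPM in solvent, 32.2 and 66.2 with APR-246, 38.04 and 67.6 after irradiation and 40.8 and 50.9 with both. NDUFS3 in the Mutant line was at 26.5 and 44.8 scaled CPM in solvent, 40.4 and 81.7 with APR-246, 50.6 and 58.3 after irradiation and 40.7 and 69.7 with both. NDUFS3 in Null cells stood at 33.1 and 66.01 scaled CPM in solvent, 57.4 and 54.1 with APR-246, 40.8 and 70.8 after irradiation and 55.96 and 86.9 with both. In Mutant cells irradiation alone gave 2 values above both solvent values, as it did for 21.1% of all genes. NDUFS7 holds the last iron-sulfur cluster before ubiquinone. NDUFS7 in WT cells measured 10.2 and 39.5 scaled CPM in solvent, 14.5 and 25.8 with APR-246, 17.5 and 39.6 after irradiation and 12.6 and 17.2 with both. NDUFS7 in the Mutant line was at 10.4 and 29.6 scaled CPM in solvent, 14.2 and 39.3 with APR-246, 27.8 and 31.3 after irradiation and 18.03 and 33.1 with both. NDUFS7 in Null cells stood at 19.9 and 55.9 scaled CPM in solvent, 32.9 and 20.8 with APR-246, 19.1 and 39.7 after irradiation and 21.2 and 47.5 with both. The solvent pair of each line overlapped or enclosed its treated pairs. NDUFS8 holds the clusters that lead to it. NDUFS8 in WT cells measured 75.2 and 281 scaled CPM in solvent, 100.3 and 184 with APR-246, 121 and 295 after irradiation and 98.5 and 147 with both. NDUFS8 in the Mutant line was at 62.4 and 193 scaled CPM in solvent, 90.4 and 242 with APR-246, 160.4 and 198 after irradiation and 112 and 213 with both. NDUFS8 in Null cells stood at 121 and 351 scaled CPM in solvent, 199.6 and 134 with APR-246, 117 and 282 after irradiation and 143 and 342 with both. For the 6 core subunits described the log2 changes against solvent ran from -0.44 to 0.73, with standard errors from 0.23 (NDUFS1) to 0.78 (NDUFS8), and the lowest adjusted p in limma was 0.542 (NDUFS1).

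In most groups the difference between replicates varied with GC content. In solvent, replicate 2 exceeded replicate 1 for 36 of 47 genes in WT, 37 in Mutant and 40 in Null, with a median absolute difference of 0.462, 0.535 and 0.592 on the log2 scale. The extremes were NDUFAF7 (-1.66) and NDUFS7 (1.90) in WT, NDUFV2 (-1.48) and NDUFS8 (1.62) in Mutant, and NDUFAF7 (-1.25) and NDUFS8 (1.53) in Null. Across these 47 genes the difference had a correlation with GC percent of 0.685, 0.711 and 0.444, a description since genes share the library. In Null with APR-246, the group where replicate 1 had the higher slope, 13 of 47 genes were higher in replicate 2 and the correlation was -0.478. In WT with APR-246 the correlation was only 0.136 while the median absolute replicate difference was 0.700, the largest of the 12 groups, and after irradiation in Mutant they were 0.0833 and 0.193. The remaining 6 treated groups had correlations from 0.523 to 0.767. The median absolute change with treatment ran from 0.152 (WT, APR-246) to 0.391 (Mutant, irradiation), in each line below the replicate difference in its solvent pair. It was above the replicate difference of the treated pair after irradiation in Mutant (0.391 against 0.193) and after the combination in WT (0.280 against 0.140), and below it in the other treated groups. Each change is between means of 2 libraries and each replicate difference between single libraries, so a smaller change is expected even with no effect.

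**Figure D2:**
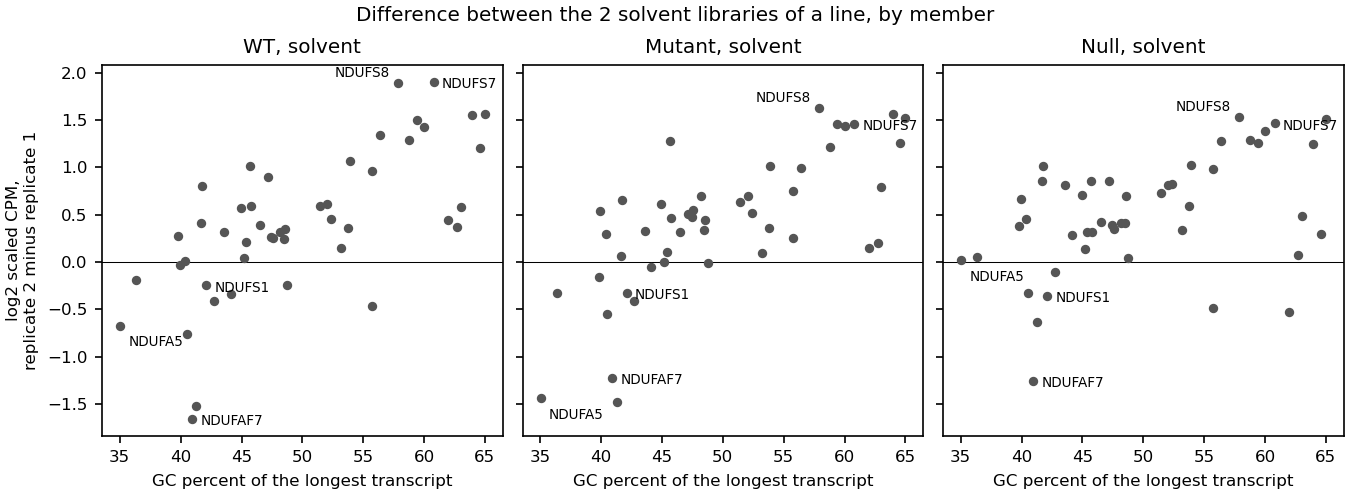
Difference between solvent replicates (replicate 2 minus 1, log2 scale) against GC percent of the transcript for 47 genes, one panel per line. Points rise with GC percent in each panel, with correlations of 0.685 (WT), 0.711 (Mutant) and 0.444 (Null).

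The comparisons asked how APR-246, irradiation and their combination altered expression in each line. In limma, with Benjamini-Hochberg adjustment over 20668 genes, NDUFA4L2 was the only one of the 47 called, lower in WT cells after irradiation (percent of all genes called lower 0.59, either way 1.56) and after the combination (0.929 lower, 2.23 either way). The other comparisons with solvent called 0 of 47: WT with APR-246 (0% of all genes called), Mutant with APR-246 (0%), irradiation (0.0774%) and the combination (0.348%), and Null with APR-246 (0.131%), irradiation (0.677%) and the combination (1.95%). At an unadjusted p under 0.05 there were 1, 4, 4, 4, 3, 2 and 5 of 47 in that order, beside 2.69, 7.34, 13.1, 11.8, 8.69, 11.8 and 15.1% of all genes, so their share was below that of all genes except in Mutant with APR-246. After irradiation and the combination in WT there were 3 and 6 of 47 (12.2 and 13.8% of all genes). In the 7 comparisons with 0 calls edgeR and DESeq2 on recovered reads also called 0 in each. Adding a replicate block or the GC slope to limma gave calls in some of these comparisons, as given below. All 3 comparisons of a line share its solvent libraries. In bulk samples, fewer cells of a kind and less RNA per cell cannot be told apart.

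NDUFA4L2 lies at chr12:57234903-57240715 (- strand, GENCODE 29, GRCh38) and shares 1.18% of its exon bases with SHMT2, on the opposite strand. SHMT2 averaged 397 CPM against 3.09 scaled CPM for NDUFA4L2. The counting strand was not given, so the level of NDUFA4L2 is uncertain to that extent. NDUFA4L2 is known as a target of HIF-1 that is induced in hypoxia and lowers the activity of complex I. NDUFA4L2 in WT cells measured 4.58 and 11.2 scaled CPM in solvent, 3.704 and 1.13 with APR-246, 0.523 and 1.403 after irradiation and 0.496 and 0.830 with both. NDUFA4L2 in the Mutant line was at 4.52 and 11.5 scaled CPM in solvent, 2.24 and 3.76 with APR-246, 2.51 and 2.89 after irradiation and 1.797 and 2.5 with both. NDUFA4L2 in Null cells stood at 3.86 and 4.84 scaled CPM in solvent, 1.701 and 0.947 with APR-246, 1.08 and 1.68 after irradiation and 1.18 and 3.17 with both. Each treated library lay below both solvent libraries of its line. Such a position in all 9 groups was held by 1.08% of all genes tested. Replicate 2 was the higher solvent library in each line. In WT cells the log2 change was -2.47 ± 0.55 (SE) after irradiation (limma, adjusted p 0.0337) and -2.74 ± 0.55 after the combination (adjusted p 0.0128). With APR-246 alone it was -1.56 ± 0.55 (adjusted p 1.00, limma). In Mutant cells the changes were -1.18, -1.28 and -1.56 (limma adjusted p 0.664, 0.327 and 0.230) and in Null cells -1.44, -1.38 and -0.96 (0.389, 0.294 and 0.446), in the order APR-246, irradiation and combination. The irradiation response of WT minus that of Null was -1.08 ± 0.77 (limma adjusted p 1.00), and of Mutant minus Null 0.10 ± 0.77, so a difference between lines was not detectable with 2 libraries a group.

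The WT calls of NDUFA4L2 depended on single libraries. After irradiation, the call held without solvent replicate 1 (-3.06, limma adjusted p 0.0465), and was lost without solvent replicate 2 (-1.88, 0.248), irradiation replicate 1 (-2.02, 0.202) and irradiation replicate 2 (-2.92, 0.0824). It was also lost in edgeR (-3.05, adjusted p 0.0663) and with no filter on low values, while DESeq2 called it (adjusted p 0.000953). The combination call held without solvent replicate 1 (-3.34, limma adjusted p 0.0177) and was lost without solvent replicate 2 (-2.15, 0.210), combination replicate 1 (-2.53, 0.103) and combination replicate 2 (-2.95, 0.0891). With each library's GC slope added to limma as a covariate, the change was -2.77 ± 0.36 after irradiation (adjusted p 3.23e-05) and -2.52 ± 0.36 after the combination (adjusted p 5.65e-05), and both calls held without each of the 4 libraries, at an adjusted p of at most 0.00468 and 0.00269. In that fit NDUFA4L2 was also called lower in all 3 Mutant comparisons (-1.43, -1.75 and -1.81, limma adjusted p 0.0244, 0.00456 and 0.00216) and all 3 Null comparisons (-1.42, -1.50 and -1.16, adjusted p 0.0106, 0.0054 and 0.0220), and not with APR-246 in WT (-1.53, adjusted p 0.236).

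NDUFA4, the paralog in complex IV, averaged 24.6 scaled CPM per kilobase against 2.61 for NDUFA4L2. NDUFA4 in WT cells measured 48.1 and 48.4 scaled CPM in solvent, 43.4 and 57.1 with APR-246, 50.1 and 64.7 after irradiation and 57.7 and 53.5 with both. NDUFA4 in the Mutant line was at 31.5 and 38.9 scaled CPM in solvent, 34.7 and 58.4 with APR-246, 40.6 and 55.8 after irradiation and 44.7 and 55.6 with both. NDUFA4 in Null cells stood at 48.2 and 66.3 scaled CPM in solvent, 55.5 and 52.01 with APR-246, 54.2 and 66.3 after irradiation and 68.3 and 62.9 with both. Its irradiated and combination pairs lay above solvent in WT (0.24 and 0.20) and Mutant cells (0.44 and 0.51), and its Null pairs overlapped. Taken singly, these comparisons had 16.5 and 21.3% (WT) and 21.1 and 18.4% (Mutant) of all genes above solvent. The limma adjusted p was at least 0.514 over the 9 comparisons.

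**Figure D3:**
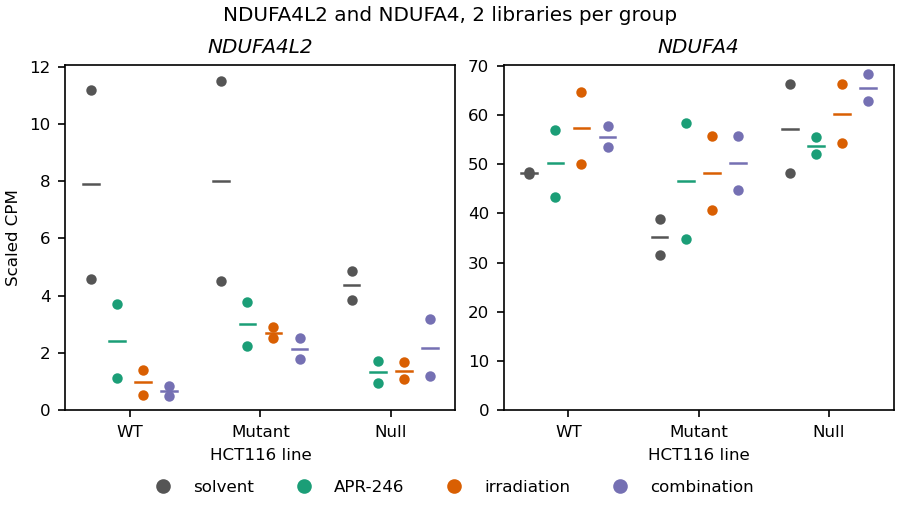
Scaled CPM of NDUFA4L2 and NDUFA4 in each library (points) by line and treatment, with the mean of 2 libraries as a dash, on linear axes that start at 0. NDUFA4L2 reached 11.2 and 11.5 in solvent replicate 2 of WT and Mutant cells and was at most 3.76 in any treated library.

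The median change of the genes was above 0 in 8 of the 9 comparisons with solvent. The median log2 change of the 47 was 0.06, 0.25 and 0.04 in WT cells (APR-246, irradiation, combination), 0.36, 0.37 and 0.38 in the Mutant line and -0.04, 0.01 and 0.17 in Null cells, beside -0.03 to 0.04 over all genes tested. Of 47 genes, WT had 28, 35 and 25 above 0, Mutant had 38, 36 and 37, and Null had 22, 25 and 32. With the GC slope in the fit the medians were 0.08, 0.04 and 0.22 in WT cells, 0.17, 0.01 and 0.17 in the Mutant line and -0.03, -0.09 and 0.03 in Null cells. Without TMM scaling the median of all genes in the WT combination was 0.19 and that of the 47 was 0.30. Of the 9 medians, the one that moved most was irradiation in Mutant, from 0.37 to 0.01 with the slope.

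Counted by overlap of the libraries, both treated values lay above both solvent values for 0, 14 and 16 of 47 genes in WT with APR-246, irradiation and the combination (0, 29.8 and 34.0%), against 8.5, 16.5 and 21.3% of all genes tested. The counts in Mutant were 11, 18 and 12 (23.4, 38.3 and 25.5%, against 11.9, 21.1 and 18.4%), and those in Null 6, 4 and 10 (12.8, 8.51 and 21.3%, against 18.6, 18.8 and 18.3%). Below both solvent values were 3, 4 and 4 in WT (all genes 7.66, 15.2 and 16.9%), 3, 3 and 3 in Mutant (13.2, 22.8 and 16%) and 8, 8 and 5 in Null (17.5, 15.9 and 16.8%). The Null shares above solvent were under those of all genes after APR-246 and irradiation.

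By role, the 12 accessory subunits of the distal membrane arm had medians of 0.14, 0.42 and 0.20 in WT cells, 0.53, 0.50 and 0.43 in the Mutant line and 0.12, 0.10 and 0.41 in Null cells (APR-246, irradiation, combination). With the GC slope these were 0.16, 0.04 and 0.47, then 0.32, 0.02 and 0.27, then 0.13, -0.01 and 0.21. The 4 core subunits of the Q module had 0.05, 0.37 and -0.22 in WT cells, 0.42, 0.67 and 0.47 in the Mutant line and -0.25, -0.23 and 0.01 in Null cells, and with the slope 0.09, -0.16 and 0.09, then 0.05, -0.18 and 0.00, then -0.23, -0.43 and -0.32. The sign of the Q module median thus turned with the slope after irradiation in WT and Mutant and after the combination in WT and Null. The 8 assembly factors had 0.54 in the WT combination (0.49 with the slope) and -0.09 to 0.17 elsewhere.

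**Figure D4:**
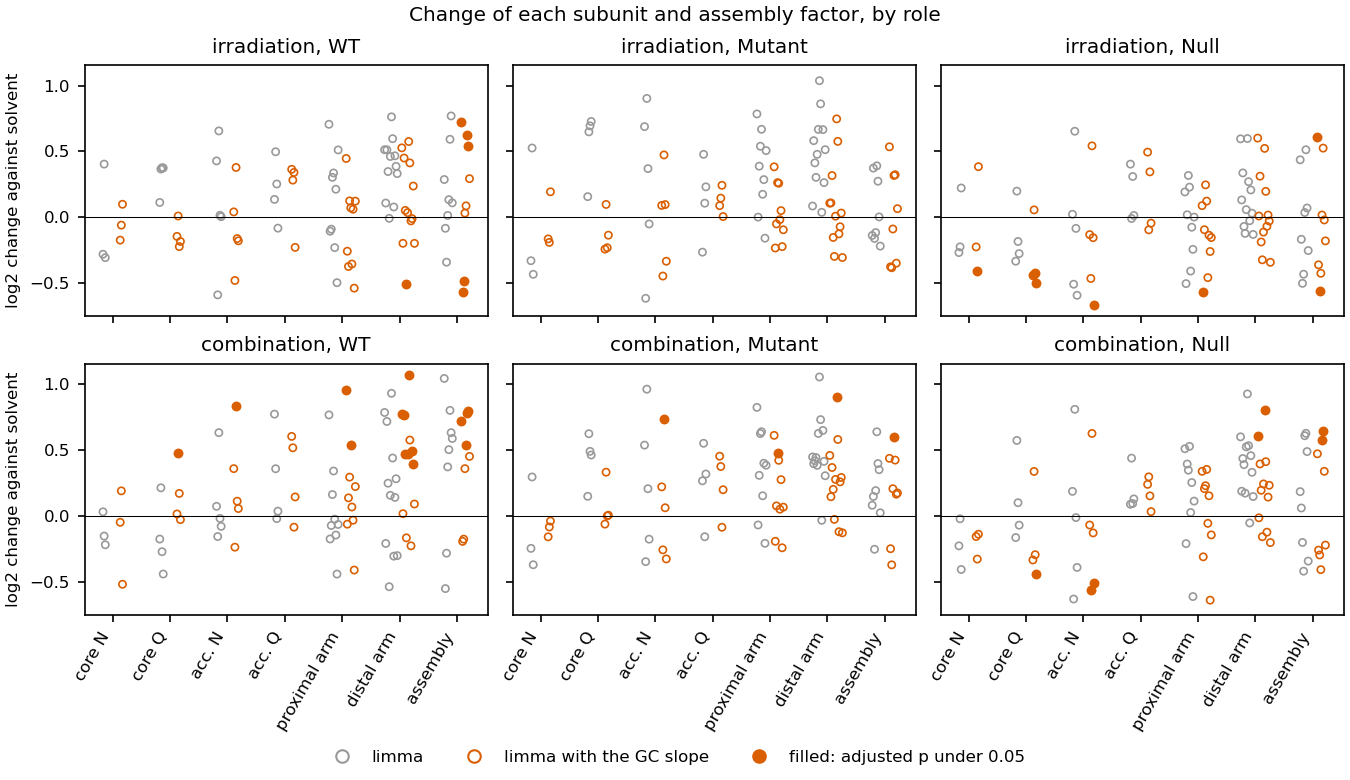
Log2 change of each gene against solvent after irradiation and after the combination, by role and line; grey is limma, orange limma with the GC slope, and filled points have an adjusted p under 0.05 (NDUFA4 and NDUFA4L2 are not shown). Grey points are all open, and the largest number of filled orange points is in the WT combination, where 15 genes were called higher.

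The GC slope fit lowered the standard errors of the 47 genes from a median of 0.372 to between 0.173 and 0.182. It did not remove the GC trend among these genes. Its changes against solvent still had correlations with GC percent from -0.419 (Mutant, irradiation) to -0.258 (Null, APR-246). Without the slope the correlation was 0.167 for irradiation in Mutant and -0.0938 in WT, against -0.419 and -0.375 with it. For the WT combination it was -0.498 without and -0.331 with the slope. The fit made further calls, and all counts below come from limma with that covariate. In the WT combination 15 of 47 were called higher (31.9%, against 11.2% of all genes) and 1, NDUFA4L2, lower (10.5% of all genes). They were NDUFS3 of the Q core (0.48), NDUFA2, an accessory subunit of the N module (0.84), NDUFS5 (0.96) and NDUFA8 (0.54) of the proximal arm, 7 of the distal arm (NDUFB2, NDUFB3, NDUFB5, NDUFB6, NDUFB9, NDUFB10 and NDUFAB1, 0.39 to 1.07), and 4 assembly factors, NDUFAF1 (0.78), NDUFAF6 (0.54), NDUFAF7 (0.72) and NDUFAF8 (0.80). The number called was 9 without solvent replicate 1, 3 without solvent replicate 2, 5 without combination replicate 1 and 3 without combination replicate 2. NDUFAF8, which stabilises the arginine hydroxylase NDUFAF5, was called higher without each of the 4 libraries (adjusted p 0.000649 with all), NDUFB5 without 3 of them, and none of the other 13 without more than 2.

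NDUFAF8 showed this in the libraries. NDUFAF8 in WT cells measured 41.7 and 62.4 scaled CPM in solvent, 48.7 and 66.6 with APR-246, 79.4 and 95.97 after irradiation and 68.6 and 91.4 with both. NDUFAF8 in the Mutant line was at 34.01 and 59.4 scaled CPM in solvent, 47.04 and 75.2 with APR-246, 38.3 and 53.1 after irradiation and 47.7 and 69.1 with both. NDUFAF8 in Null cells stood at 37.1 and 52.1 scaled CPM in solvent, 46.5 and 55.6 with APR-246, 43.9 and 48.6 after irradiation and 50.1 and 76.2 with both. Both WT pairs that were irradiated lay above both WT solvent values. Taken singly, 16.5% of all genes did so after irradiation and 21.3% after the combination. The plain limma changes in WT were 0.77 ± 0.36 after irradiation and 0.63 ± 0.36 after the combination, with a lowest adjusted p of 0.396 over the 9 comparisons.

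In WT cells after irradiation alone, the GC slope fit called 3 higher (6.38%, against 9.07% of all genes) and 4 lower (8.51% against 8.99%). The higher ones were the assembly factors NDUFAF7 (0.72 ± 0.20, adjusted p 0.0155), a methyltransferase of the Q module, NDUFAF1 (0.62, 0.0264) and NDUFAF8 (0.54, 0.0152). The lower ones were NDUFA4L2, NDUFAF3 (-0.57, 0.0103), NDUFAF2 (-0.48, 0.0446) and NDUFB11 (-0.51, 0.0108). Of these, only NDUFA4L2 was called without each of the 4 libraries, and the number called was 5, 1, 1 and 5 without solvent replicates 1 and 2 and irradiation replicates 1 and 2. Both shares were under those of all genes. NDUFAF7 in WT cells measured 8.81 and 2.45 scaled CPM in solvent, 8.68 and 5.19 with APR-246, 8.58 and 3.998 after irradiation and 10.8 and 9.796 with both. Its solvent values enclosed or overlapped those after APR-246 and irradiation, and the plain limma change after irradiation was 0.29.

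In Null cells after irradiation it called 1 higher (NDUFAF7, 0.61; 2.13%, against 9.08% of all genes) and 8 lower (17.0% against 10.9%). Among the lower were the core subunits NDUFV1 (-0.41), NDUFS7 (-0.50) and NDUFS8 (-0.42), the accessory subunits NDUFV3 (-0.66 ± 0.13, adjusted p 0.000870) and NDUFA10 (-0.56 ± 0.12, adjusted p 0.00194), NDUFAF2 (-0.56) and NDUFA4L2. NDUFV3 and NDUFA10 were called without each of the 4 libraries. The number called was 8 without solvent replicate 1, 3 without solvent replicate 2, 2 without irradiation replicate 1 and 5 without irradiation replicate 2. In plain limma these 3 core subunits had -0.22, -0.27 and -0.18 there, each under 1 standard error.

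NDUFV3 is an accessory subunit that lies on the N module. NDUFV3 in WT cells measured 39.4 and 49.4 scaled CPM in solvent, 36.7 and 43.9 with APR-246, 37.3 and 52.5 after irradiation and 41.7 and 41.7 with both. NDUFV3 in the Mutant line was at 34.7 and 56.7 scaled CPM in solvent, 39.2 and 54.7 with APR-246, 43.1 and 42.6 after irradiation and 34.1 and 45.1 with both. NDUFV3 in Null cells stood at 41.2 and 54.9 scaled CPM in solvent, 36.5 and 31.8 with APR-246, 26.3 and 37.5 after irradiation and 32.3 and 40.4 with both. In Null cells each treated library lay below both solvent libraries, whereas WT and Mutant pairs overlapped. Taken singly, these Null comparisons had 17.5, 15.9 and 16.8% of all genes below solvent (APR-246, irradiation, combination). NDUFA10, related to nucleoside kinases, sits in the proximal arm. NDUFA10 in Null cells stood at 92.1 and 121 scaled CPM in solvent, 103 and 92.1 with APR-246, 67.7 and 81.6 after irradiation and 82.3 and 101 with both. Only the irradiated pair was wholly below solvent there.

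The Null combination had 4 called higher with the slope (8.51%, against 10.8% of all genes), NDUFB3 (0.61), NDUFB6 (0.80), NDUFAF1 (0.65) and NDUFAF6 (0.58), and 4 lower (8.51% against 13.7%), NDUFS4 (-0.56), NDUFS7 (-0.44), NDUFV3 (-0.51) and NDUFA4L2. Its number was 3 without solvent replicate 1, 1 without solvent replicate 2, 8 without combination replicate 1 and 6 without combination replicate 2. The Mutant combination had 4 higher (8.51%, against 7.69%), NDUFA1 (0.48), NDUFA2 (0.73), NDUFB6 (0.90) and NDUFAF6 (0.60), and NDUFA4L2 lower (8.81% of all genes). That number was 5 and 0 without solvent replicates 1 and 2, and 1 without either combination library. After irradiation alone, the Mutant line had NDUFA4L2 lower and no other call (5.71% of all genes higher, 7.78% lower), and the number was 1 and 0 without solvent replicates 1 and 2, 0 without irradiation replicate 1 and 2 without irradiation replicate 2.

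With APR-246 alone the slope fit called 0 of 47 in WT (0% of all genes), where 1 of 47 had an unadjusted p under 0.05 in plain limma (2.69% of all genes). In Mutant cells it called NDUFA4L2 lower (3.31% of all genes higher, 3.43% lower), and the number was 3 and 0 without solvent replicates 1 and 2 and 2 and 0 without APR-246 replicates 1 and 2. In Null cells it called NDUFA4L2, NDUFV3 (-0.47, adjusted p 0.0145) and NDUFAF2 (-0.66, adjusted p 0.0083) lower (6.38%, against 8.22%; higher 0, against 6.86%), and 0, 1, 2 and 0 genes without solvent replicates 1 and 2 and APR-246 replicates 1 and 2. NDUFAF2, a chaperone related to NDUFA12, was 21.9 and 27.4 scaled CPM in Null solvent and 16.7 and 13.8 with APR-246. In WT it was 18.6 and 28.3 in solvent and 18.9 and 14.6 with APR-246, which overlap.

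A few genes lay outside the solvent range in most treated groups, and the 3 treated groups of a line share its solvent pair. Above solvent in at least 8 of the 9 groups were 2 of 47 genes (2.66% of all genes), in at least 7 were 4 (4.93%) and in at least 6 were 8 (8.02%), and below solvent in at least 7 were 2 (5.18%), NDUFA4L2 and NDUFS4. NDUFB5 (chr3:179604690-179627647, + strand), an accessory subunit of the distal arm, was above solvent in 8 of 9 groups. NDUFB5 in WT cells measured 31.2 and 37.7 scaled CPM in solvent, 35.9 and 60.6 with APR-246, 46.2 and 52.3 after irradiation and 59.6 and 53.9 with both. NDUFB5 in the Mutant line was at 33.1 and 29.6 scaled CPM in solvent, 41.2 and 52.3 with APR-246, 40.1 and 43.7 after irradiation and 40.02 and 44.04 with both. NDUFB5 in Null cells stood at 29.1 and 38.1 scaled CPM in solvent, 46.3 and 40.4 with APR-246, 39.7 and 44.9 after irradiation and 50.6 and 40.3 with both. Overlap remained only with APR-246 in WT, and the changes were 0.34 to 0.72 (SE 0.26, lowest limma adjusted p 0.194). NDUFAF1 (chr15:41387349-41402519, - strand), an assembly factor of the membrane arm, was likewise above solvent in 8 of 9. NDUFAF1 in WT cells measured 10.8 and 9.06 scaled CPM in solvent, 8.25 and 12.7 with APR-246, 15.7 and 14.7 after irradiation and 16.4 and 18.9 with both. NDUFAF1 in the Mutant line was at 8.91 and 8.88 scaled CPM in solvent, 11.02 and 11.7 with APR-246, 10.97 and 10.8 after irradiation and 11.5 and 12.2 with both. NDUFAF1 in Null cells stood at 9.19 and 9.45 scaled CPM in solvent, 10.5 and 13.9 with APR-246, 14.7 and 12.4 after irradiation and 17.5 and 12.2 with both. Solvent values were within 8.88 to 10.8 in all lines, and the largest change was 0.80 ± 0.25 in the WT combination (limma adjusted p 0.114).

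NDUFB6 (chr9:32552999-32573184, - strand), another subunit of the distal arm, was above solvent in 7 of 9 groups. NDUFB6 in WT cells measured 12.5 and 16.9 scaled CPM in solvent, 13.2 and 36.1 with APR-246, 20.2 and 31.00 after irradiation and 27.5 and 28.9 with both. NDUFB6 in the Mutant line was at 14.4 and 15.02 scaled CPM in solvent, 23.2 and 37.5 with APR-246, 31.5 and 29.9 after irradiation and 28.5 and 33.7 with both. NDUFB6 in Null cells stood at 14.3 and 26.4 scaled CPM in solvent, 31.6 and 30.1 with APR-246, 25.9 and 34.1 after irradiation and 37.6 and 37.2 with both. It overlapped with APR-246 in WT and after irradiation in Null, and its changes were 0.58 to 1.05 (SE 0.39, lowest limma adjusted p 0.267). NDUFS4 (chr5:53560633-53683340, + strand), which helps hold the N module in place, was below solvent in 7 of 9. NDUFS4 in WT cells measured 29.5 and 22.1 scaled CPM in solvent, 24.02 and 17.6 with APR-246, 17.5 and 16.2 after irradiation and 23.5 and 22.2 with both. NDUFS4 in the Mutant line was at 22.9 and 17.01 scaled CPM in solvent, 15.7 and 16.7 with APR-246, 10.01 and 16.1 after irradiation and 15.1 and 15.7 with both. NDUFS4 in Null cells stood at 22.5 and 20.99 scaled CPM in solvent, 13.3 and 16.7 with APR-246, 15.2 and 15.1 after irradiation and 18.04 and 10.6 with both. The overlaps were WT with APR-246 and the WT combination, and the changes ran from -0.63 to -0.16 (SE 0.29, lowest limma adjusted p 0.305). NDUFA2 was above solvent in 7 of 9 groups and NDUFS5, NDUFB3, NDUFB8 and NDUFAF6 in 6.

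**Figure D5:**
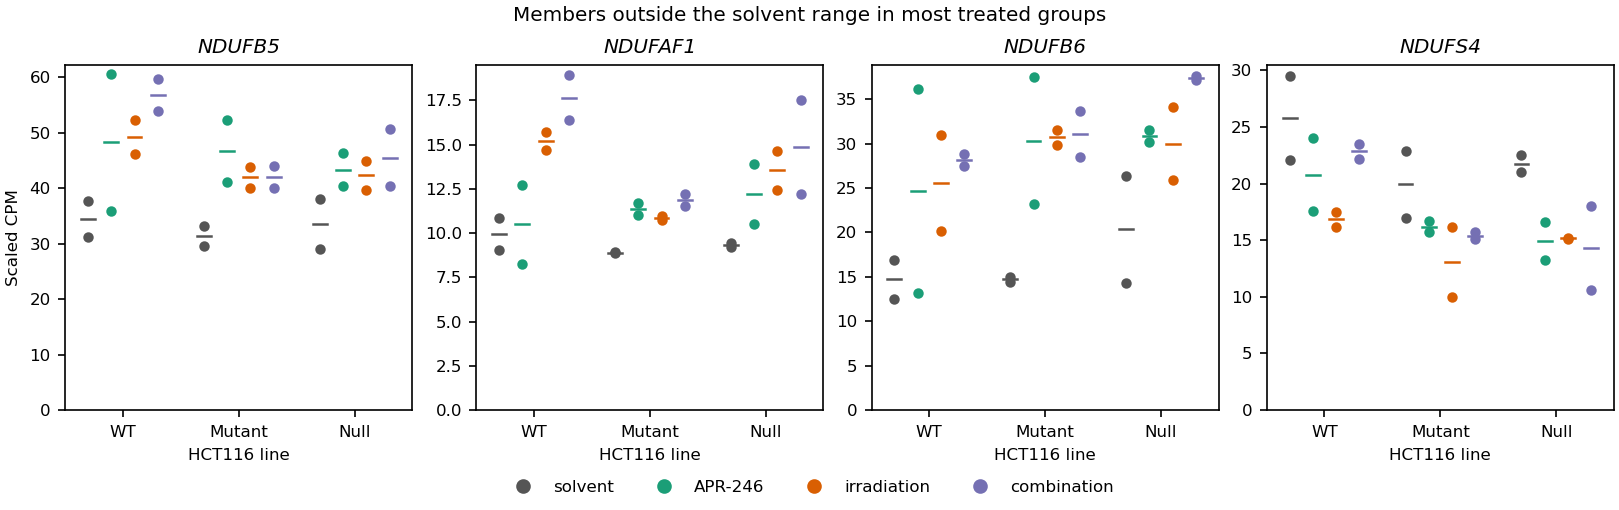
Scaled CPM of NDUFB5, NDUFAF1, NDUFB6 and NDUFS4 in each library (points; dash, mean of 2) by line and treatment. The first 3 lie above their solvent pair in 8, 8 and 7 of the 9 treated groups and NDUFS4 below it in 7 (at least 7 above, 4.93% of all genes; at least 7 below, 5.18%), while none passed limma without the GC slope.

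APR-246 added to irradiation was examined by setting the combination against irradiation alone. Limma called 0 of 47 in WT, Mutant and Null (0% of all genes in each), with 0, 0 and 1 at an unadjusted p under 0.05 (4.11, 1.96 and 1.67% of all genes), and edgeR, DESeq2 and the slope fit also called 0. Medians were -0.09, -0.02 and 0.20, or 0.25, 0.15 and 0.10 with the slope, so the sign in WT and Mutant depended on it. The smallest unadjusted p belonged to NDUFAF6 in Null, an assembly factor needed for early steps of the complex, at 0.57 ± 0.22 (limma adjusted p 1.00). NDUFAF6 was 6.09 and 6.42 scaled CPM after irradiation in Null and 9.06 and 10.0 with both. In WT it was 7.78 and 8.86 against 10.5 and 11.3, and in Mutant 7.39 and 7.62 against 8.10 and 9.98, so the combination pair was the higher in each line. Combination values lay above both irradiation values for 10, 7 and 6 of 47 genes (22.8, 17.9 and 8.87% of all genes) and below for 4, 2 and 1 (18.1, 14.5 and 9.68%).

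Between lines in solvent, limma called 0 of 47 for Mutant against WT (0.629% of all genes called), Null against WT (0.992%) and Mutant against Null (2.5%), with 0, 0 and 2 at an unadjusted p under 0.05 (5.81, 7.31 and 11.5% of all genes) and 0 in edgeR and DESeq2. Medians were -0.13, 0.14 and -0.23. The 2 genes were NDUFAF4, an early assembly factor (-0.56 ± 0.23, limma adjusted p 0.302), and NDUFA4 (-0.68 ± 0.28, adjusted p 0.322), both lower in Mutant than in Null. NDUFAF4 was 14.4 and 11.3 scaled CPM in Mutant and 18.8 and 19.4 in Null solvent. The slope fit called both lower (4.26%, against 7.71% of all genes) and NDUFAF3 higher (0.49; 2.13%, against 8.09%), and 1, 0, 0 and 1 genes without Mutant solvent replicates 1 and 2 and Null solvent replicates 1 and 2. The irradiation response of WT minus that of Null (0.029% of all genes called) and of Mutant minus that of Null (0%) called 0 of 47, with 0 at an unadjusted p under 0.05 (3.02 and 1.99% of all genes) and 0 in edgeR, DESeq2 and the slope fit.

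The partners of these genes in the respiratory chain were counted in the same fits, and plain limma called 0 in every list below against solvent. The 7 mitochondrially encoded complex I subunits had medians of -0.03, 0.37 and 0.47 in WT cells, 0.06, 0.49 and -0.01 in the Mutant line and -0.03, 0.13 and -0.06 in Null cells, and the slope fit called 5 of 7 higher in the WT combination (11.2% of all genes), 2 of 7 after irradiation in WT (9.07%) and 3 of 7 after irradiation in Mutant (5.71%). These list counts were not refitted without single libraries. Among the other nuclear complexes in the WT combination, the slope fit called higher 3 of 4 complex II subunits, 1 of 9 of complex III, 2 of 10 of complex IV and 5 of 17 of ATP synthase, beside 11.2% of all genes. Complex II, which passes electrons from succinate to ubiquinone, had medians of 0.25, 0.47 and 0.42 in WT cells, 0.61, 0.70 and 0.56 in the Mutant line and 0.36, 0.29 and 0.55 in Null cells. Of 12 further complex I assembly factors 2 were called higher there, and of 11 tested regulators of mitochondrial genes 2 higher and 1 lower. At an unadjusted p under 0.05 in plain limma, the WT combination had 1 of 7 mitochondrial subunits, 1 of 4 in complex II, 1 of 9 in complex III, 1 of 10 in complex IV and 0 of 17 in ATP synthase (13.8% of all genes), and DESeq2 called 1 of the 7 and 0 in the rest.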

How the data were processed

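RNA from 24 HCT116 samples was sequenced as paired 100-base reads on a BGIseq500 after oligo(dT) selection, per the labels' protocols. The deposited values are CPM (reads relative to the library total) per Ensembl gene that the authors made; FastQC, STAR, featureCounts (Subread) and the build GRCh38.p13 are named in the submitters' processing notes, and versions, counting strand and annotation release are not given in the sources used here. Every CPM value was a whole number of reads within 0.05 read, so reads were recovered; 74.5 to 81.5% of counts from 2 to 9 were even. Symbols were matched for 60419 of 60675 ids, and coordinates and lengths are from GENCODE 29.

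Groups came from the titles. CPM were scaled by TMM (edgeR 4.0.16), and genes passing edgeR's filterByExpr with a minimum count of 10 were kept, 20668 in all. The test was limma 3.58.1 (R 4.3.3), trended and robust, on log2(scaled CPM + 0.5) with 12 group means over 24 libraries (12 residual degrees of freedom) and Benjamini-Hochberg adjustment over all genes tested; a call is an adjusted p under 0.05. Fold changes on this scale understate those of low genes. Alternatives were a pseudocount of 2, no filter, CPM as deposited, DESeq2 size factors, edgeR and DESeq2 1.42.0 on recovered reads, a replicate block, each library's GC slope in the model, which leaves 11 degrees of freedom, slope and block together, and leaving out each library. The GC slope is estimated from the same libraries over all genes, with GC percent of the longest transcript. Leaving out libraries in the slope fit, and edgeR with robust dispersions after its counts had been seen (identical counts), were chosen after seeing the data. The length behind levels per kilobase was tried 4 ways. The scripts were tested on simulated data.

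Genes, roles, lists and the use of the GC slope were chosen with earlier results of these data known. Values in every library were given by rule for 6 of the 7 core subunits, NDUFA4 and NDUFA4L2. The rule also named genes called in a comparison or, where fewer than 3 were called, those with the 3 smallest p. Only some of these are printed library by library, and NDUFB3, NDUFB8, NDUFA5, NDUFA7 and NDUFA13 are not. NDUFB5, NDUFAF1, NDUFB6 and NDUFS4 were drawn together because of their overlap counts, after these were seen. Protein sequences were not used here, and results for some genes are not reported here. Depth was 53184139 to 58058729 reads per library, and 3 reads correspond to 0.0517 to 0.0564 CPM.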

Additional observations from a re-analysis of the deposited data

Results flagged for a closer look

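In 4 instances every library of one line moved one way against solvent and every library of another moved the opposite way. These lay in 3 of the 47 genes (6.38%), beside 2936 such instances in 1949 of all 20668 genes (9.43%) over the same 3 treatments and 3 pairs of lines, so the share was below that of all genes. Except for NDUFC2, these differences were not tested, and each group has 2 libraries. NDUFA11, an accessory subunit of the proximal membrane arm, stood out with APR-246. It was 10.6 and 13.8 scaled CPM in WT solvent and 8.59 and 10.5 with APR-246, a log2 change of -0.33. In Mutant cells it was 10.0 and 11.6 in solvent and 11.8 and 17.4 with APR-246 (0.39), so WT minus Mutant was -0.72, not tested. In Null cells it was 9.88 and 10.4 in solvent and 9.70 and 8.83 with APR-246 (-0.12), so Mutant minus Null was 0.51, also not tested. NDUFA11 shares 12.1% of its exon bases with other genes.

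NDUFC2, a subunit of the same arm, was 5.46 and 5.93 scaled CPM in Mutant solvent and 6.67 and 6.32 after irradiation (0.18), against 5.55 and 7.02 and then 4.05 and 5.19 in Null (-0.41). Mutant minus Null was 0.58 ± 0.41, with a limma adjusted p of 1.00. NDUFC2 shares 18.1% of its exon bases with other genes, mainly the readthrough gene NDUFC2-KCTD14, which was at 0 in every library. NDUFAF4, an assembly factor, was 16.0 and 14.02 in WT solvent and 18.3 and 20.8 after the combination (0.37), against 18.8 and 19.4 and then 16.4 and 12.2 in Null (-0.42). WT minus Null was 0.79, and that difference was not tested.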

How the results depend on the processing

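Counts of genes called, out of 47, are given as limma on TMM-scaled CPM against each alternative. For irradiation in WT the count of 1 was 0 with no filter on low values, 0 in edgeR and 0 in edgeR with robust dispersions. It was 2 with the replicate block, 7 with the GC slope and 8 with the slope and the block. For the WT combination the count of 1 was 2 with CPM as deposited, 2 in DESeq2, 4 with the replicate block, 16 with the slope and 11 with the slope and the block. Where limma called 0, the replicate block called 3 after irradiation in Mutant, 4 after the combination in Mutant and 3 after the combination in Null. The slope called 1 for APR-246, 1 for irradiation and 5 for the combination in Mutant, 3, 9 and 8 in Null, and 3 for Mutant against Null in solvent. The slope with the replicate block called 6, 1 and 8 in Mutant, 5, 11 and 9 in Null, and 4 for Mutant against Null. Leaving out each library in turn gave 0 to 1 for both WT comparisons with a call, and 0 in all other comparisons.

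Leaving out each library from the slope fit gave 1 to 5 genes for irradiation in WT, 3 to 9 for the WT combination, 0 to 3, 0 to 2 and 0 to 5 for APR-246, irradiation and the combination in Mutant, 0 to 2, 2 to 8 and 1 to 8 in Null, and 0 to 1 for Mutant against Null. No called change reversed under the alternatives run, but changes that were not called could: NDUFV1 after irradiation in WT was 0.40 and, with the slope, -0.06. Where a call or a count moved, the cause was not tested. Same-numbered libraries deviated together in most groups: over 66 pairs of groups the correlation of replicate deviations had a median of 0.629, with 55 above 0.1, and it was 0.41 to 0.85 within WT and 0.55 to 0.83 within Mutant. It was not above 0.1 in every pair (lowest -0.562), within Null it ran from -0.55 to 0.83, and the labels do not say that the numbers pair samples, so the pairing is a hint from the data and the block stayed an alternative. With it, the 0 calls after irradiation in Mutant and after the combination in Mutant and Null became the 3, 4 and 3 given above. With 2 libraries a group and a median standard error of 0.372 for these genes, changes of a size such as 0.25 were not detectable.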
